A study of Mus musculus with 4 samples.

Results

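Accessible chromatin was described at 4 receptor tyrosine kinase genes in mouse cells: Pdgfra, Kit and Kdr, which lie side by side on chromosome 5, and Pdgfrb on chromosome 18. The members are all peaks of 4 ATAC-seq lists that lie over these gene bodies or within 100 kb of them. ATAC-seq uses a transposase to cut and tag open DNA. The 4 loci held 100 of 157212 peaks in mouse embryonic fibroblasts (MEF), 49 of 133235 in the reprogramming intermediate, 106 of 132875 in induced pluripotent stem cells (iPSC) and 67 of 129533 in embryonic stem cells (ESC). Peaks of any list that shared at least 1 bp were merged, which gave 175 regions at the 4 loci of 256632 in all. A region is called open in a library where it holds a listed peak of that library. A region without a listed peak is not thereby shown to be inaccessible.

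Each population was profiled in 1 library of 50000 cells, so there was no replicate check and no test between populations. MEF and iPSC carry the same strain and transgene label, A12 (Mbd3 flox/-), in which Mbd3 has a floxed and a deleted allele. The ESC are of the line v6.5, with no transgene listed. The intermediate came from fibroblasts labelled B6/129 with the transgenes Rosa26-TdTomato (B6 female) and Col1a-OSKM (129 male). From day 1 until day 9 their medium held doxycycline, which induces OSKM (Oct4, Sox2, Klf4 and Myc, the reprogramming factors), together with 4-hydroxytamoxifen and 0.5 µM of a JAK1 inhibitor. Cells in which a Nanog-driven, tamoxifen-dependent Cre had switched on tdTomato were then sorted, and the label says that no feeder cells were present. The sample title gives day 9 and the source field day 6. Only MEF and iPSC share a strain label, so strain and cell state cannot be told apart in every other comparison. The design asks whether fibroblasts on the way to neural stem cells pass through pluripotency.

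The 4 genes encode cell-surface kinases that dimerise when a ligand binds and then recruit adaptors such as Grb2, Shc1 and the PI3-kinase subunit Pik3r1. PDGFRA and PDGFRB bind the platelet-derived growth factors and are typical of mesenchymal cells, with PDGFRB also marking pericytes and smooth muscle. KIT is the receptor of stem cell factor, the product of Kitl, and is used by germ cells, melanocytes, mast cells and blood progenitors. KDR, also called VEGFR2 or FLK1, is the main VEGF receptor of endothelial cells and appears early in mesoderm.

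In GRCm38, Pdgfra lies on chromosome 5 from 75151322 to 75198206, Kit from 75574987 to 75656722 and Kdr from 75932827 to 75979072. The 3 genes span 828 kb, with gaps of 377 kb and 276 kb between them, so their 100 kb flanks do not overlap. The start sites used were 75152251 for Pdgfra, 75574987 for Kit and 75978455 for Kdr, which is read from the minus strand. Exon positions were not used here, so sites within a gene are given by their distance from its start.

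The 250 bases before the start of each chromosome 5 gene are shown because the 3 genes differed there, and at Kdr the libraries too. No list had a peak on the Pdgfra stretch, all 4 lists had a peak on that of Kit, and MEF, iPSC and ESC but not the intermediate had a peak on that of Kdr. The sequences are from RefSeq (GRCm38.p6), 5′ to 3′ on the strand of the gene, and capitals mark matches to any of 11 searched motifs on either strand. Those of Pdgfra and Kdr lie inside the annotated gene bodies, which begin further upstream than the start sites used.
Pdgfra, chr5:75152001-75152250, plus strand: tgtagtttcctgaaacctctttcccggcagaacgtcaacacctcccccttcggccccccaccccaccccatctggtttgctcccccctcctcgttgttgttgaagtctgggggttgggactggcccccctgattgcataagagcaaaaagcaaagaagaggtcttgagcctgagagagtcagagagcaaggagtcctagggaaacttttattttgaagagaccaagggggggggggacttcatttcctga
Kit, chr5:75574737-75574986, plus strand: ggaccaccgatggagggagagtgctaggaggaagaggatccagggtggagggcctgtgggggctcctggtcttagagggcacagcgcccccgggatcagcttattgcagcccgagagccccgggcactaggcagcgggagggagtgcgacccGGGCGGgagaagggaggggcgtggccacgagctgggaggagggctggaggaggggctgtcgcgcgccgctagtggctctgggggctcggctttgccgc
Kdr, chr5:75978456-75978705, minus strand: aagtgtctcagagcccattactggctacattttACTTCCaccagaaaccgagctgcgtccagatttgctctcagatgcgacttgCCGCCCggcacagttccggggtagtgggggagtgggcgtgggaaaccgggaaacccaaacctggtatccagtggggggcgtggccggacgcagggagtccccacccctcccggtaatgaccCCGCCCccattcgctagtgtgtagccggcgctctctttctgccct
The Pdgfra stretch has 4 CpG dinucleotides and a GC content of 54.4%, where the median of 21045 such stretches at protein-coding genes was 10 CpG and 55.6% GC. That of Kit has 17 CpG and 70.8% GC, and that of Kdr 16 CpG and 61.6% GC. Across all stretches with 2 to 4 CpG, 19.7% overlapped a peak in iPSC, 19.2% in ESC, 19.0% in MEF and 17.5% in the intermediate. Across those with 15 to 19 CpG the shares were 94.3%, 97.5%, 92.3% and 89.7%. A missing peak on the Pdgfra stretch was thus the common case for its CpG number. The missing Kdr peak of the intermediate was the uncommon one. For Pdgfra this depends on the start site used. The annotated gene begins further upstream, at 75151322. MEF, iPSC and ESC had a peak there, with summits at 75151330, 75151325 and 75151295.

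**Figure D1:**
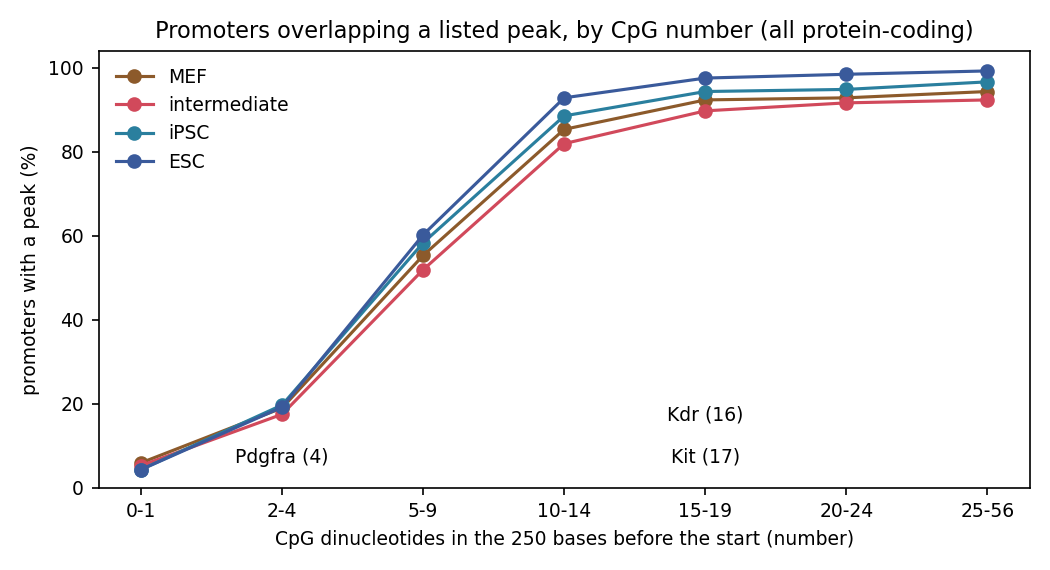
The share of promoter stretches of 250 bases that overlap a listed peak (y axis, percent) is plotted by the number of CpG dinucleotides they hold (x axis), with 1 line per library. Pdgfra with 4 CpG falls where 17.5% to 19.7% of stretches had a peak, and Kit with 17 and Kdr with 16 fall where 89.7% to 97.5% had one.

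The capitals in the Kit and Kdr sequences are GC boxes of SP and KLF factors and a single ETS match. The GC box, GGGCGG, occurs once before Kit, beginning 98 bases before the start, and at 166 and 45 bases before Kdr. It is found in 43.1% of all stretches. The ETS motif GGAAGT occurs in reverse complement 217 bases before Kdr and is found in 20.5% of stretches. The other motifs searched were TGANTCA of AP-1 (6.17% of stretches), CCAAT (35.6%), AGATAA of GATA factors (8.84%), the octamer ATGCAAAT (1.59%), ACAATG of SOX factors (8.84%), TGTGGT of RUNX (12.2%), GGAATG of TEAD (11.6%), CACGTG (6.70%) and GTCTAGAC of SMAD (0.185%). None of these letters are in the 3 windows, and the Pdgfra window holds no match at all.

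All 4 genes had a peak near the start in MEF and ESC, and Kit was the 1 gene that had it in the intermediate. A start peak here is a peak within 1 kb of the start site, or of either gene end for Pdgfrb and other genes outside the RefSeq promoter table. The heights quoted are the authors' whole-number peak heights. They are not scaled between libraries, so they rank peaks within a list only. For Pdgfra the start peak had a height of 56 in iPSC (at or above 68.5% of that list), 30 in ESC (49.5%) and 30 in MEF (51.3%), and the intermediate had no start peak. For Pdgfrb it had a height of 72 in MEF (86.4%) and 30 in ESC (49.5%), while iPSC and the intermediate lacked it. These are middling peaks of their lists but for that of Pdgfrb in MEF. Kdr had 212 in iPSC (96.6%), 83 in ESC (87.6%) and 77 in MEF (87.8%), and again no start peak in the intermediate. Kit had 223 in iPSC (96.9%), 108 in ESC (92.1%), 48 in the intermediate (68.5%) and 27 in MEF (45.3%).

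A start peak in MEF that was missing in the intermediate was thus seen at 3 of the 4 genes. It was seen at 1075 of 17274 protein-coding genes with a listed start site, 6.22%. Of the 17274, 11041 had a start peak in MEF and so could lack it in the intermediate in this way. Pdgfrb, scored at either gene end, is not among the 17274. Over these 17274 genes, 67.0% had a start peak in ESC, 65.4% in iPSC, 63.9% in MEF and 62.3% in the intermediate. Pdgfra and Kdr are among the genes whose start peak was lacking in the intermediate alone, which made up 2.92% of all and 5.00% of those with a start peak in the other libraries. When only the taller 50% of each list was used, Pdgfrb and Kdr kept a start peak in MEF and the intermediate still had 1 gene of 4. With a window of 500 bp in place of 1 kb, Pdgfra had no start peak in any list at the start site used. Its nearest regions lay 0.510 and 0.661 kb from the start.

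The start of Pdgfra was open at its edges. A region from 75150551 to 75151590, 0.661 kb upstream of the start site and over the lower end of the annotated gene, was open in MEF, iPSC and ESC. A region from 75152761 to 75154371, 0.510 kb downstream, was open in iPSC and ESC with heights of 27 and 30. The tallest peaks of the locus in MEF and the intermediate lay further in. A region from 75154721 to 75157720 was open in all 4 libraries, and its tallest peak had a height of 133 in iPSC, 118 in MEF, 113 in the intermediate and 63 in ESC. It held 2 main summits, placed almost alike in every list. The nearer summit was 3594 bp downstream of the start in MEF, 3604 bp in both pluripotent lists and 3634 bp in the intermediate. The farther summit was 4094 bp downstream in the intermediate, 4099 bp in iPSC, 4104 bp in MEF and 4134 bp in ESC. The farther summit was the taller in MEF (118 against 80) and ESC (63 against 58), and the nearer in the intermediate (113 against 80) and iPSC (133 against 92). This was the only MEF region at the locus, of 10, that was open in the intermediate.

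**Figure D2:**
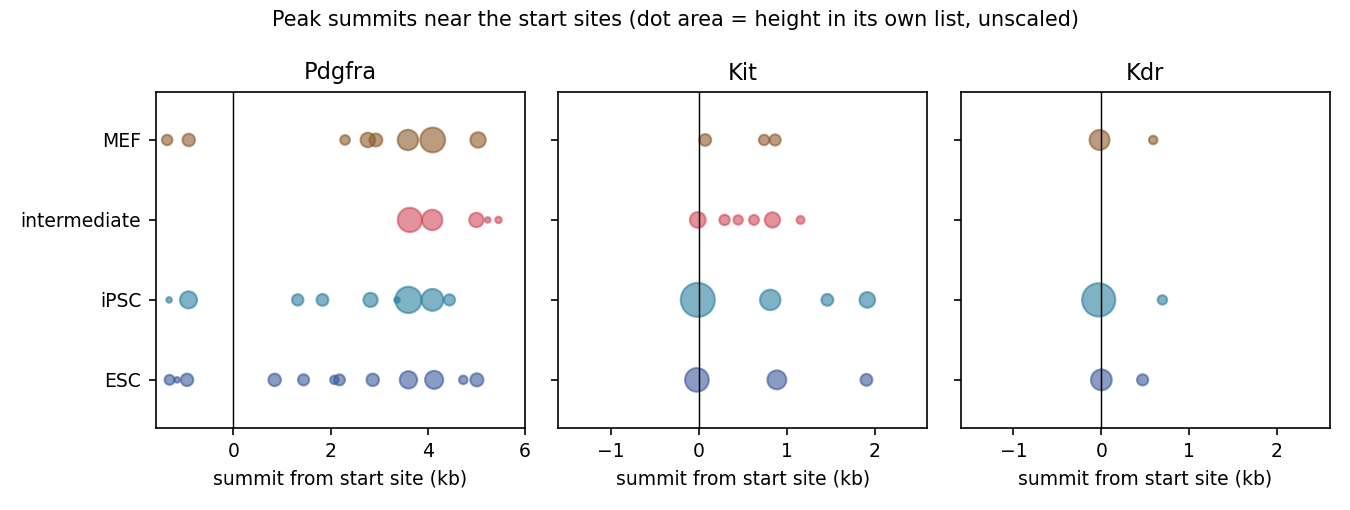
Each dot is a peak summit, placed by its distance in kb from the start site (x axis) in each library (rows), with dot area proportional to the unscaled peak height. At Pdgfra summits near 3.6 and 4.1 kb recur in all 4 libraries, at Kit summits lie within 73 bp of the start in all 4, and at Kdr the intermediate has none within the plotted 1.6 kb upstream to 2.6 kb downstream.

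Upstream of Pdgfra most open regions were open in iPSC, and most of these were not open in ESC. Of 17 regions in the 5′ flank, 15 were open in iPSC and 6 in ESC. In iPSC alone 10 were open and in MEF alone 1, where 13.9% and 32.4% of all regions were of these kinds. Some of the 10 were parts of wider stretches that joining merges, such as peaks of height 6 at 72.0 and 68.4 kb upstream. The intermediate shared 2 of the pluripotent regions there. At 84.4 kb upstream the heights were 57 in ESC, 56 in iPSC and 55 in the intermediate, and at 66.2 kb upstream they were 88, 146 and 77. These regions lie on either side of Gsx2, a homeobox gene of the developing forebrain. The start of Gsx2 had a peak of height 74 in iPSC and 21 in ESC, and neither MEF nor the intermediate had one. In MEF the tallest peak outside the gene, of height 50, was 105 kb downstream of the start. The regions open in the intermediate alone were a neighbouring pair inside the gene, 33.2 and 33.5 kb from the start, with heights of 18 and 34.

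Pdgfrb had the most MEF regions of the 4 loci, and none of those over the gene were open in the intermediate. The gene lies on chromosome 18 from 61045127 to 61085067, and its start was taken as the lower-numbered end, with the strand from general knowledge. The open regions at the locus numbered 44 in MEF, 19 in iPSC, 13 in the intermediate and 11 in ESC. Over the gene body MEF had 14, of which 12 were in no other list. With 0 of 14 open in the intermediate, the count allows a share of up to 21.4%. That limit is close to the 21.7% of all MEF regions that were open in the intermediate, and 70.9% of all MEF regions were in no other list. After joining peaks at most 10 bp apart these were 7 stretches with 0 open in the intermediate, which allows up to 42.9%, above the joined share of 32.4% over all regions. The stretches began at the start, from 61044471 to 61047210 with a tallest MEF peak of 72, and went on between 9.20 and 13.1 kb downstream, where the tallest peak had a height of 81. The last, 31.9 kb downstream, was shared with the pluripotent lists, with heights of 57 in ESC, 56 in iPSC and 34 in MEF. The intermediate had 1 region over the gene, 20.1 kb downstream, with a height of 37, which iPSC shared with a height of 50.

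The flanks of Pdgfrb are dense with other genes, and 12 of the 13 regions of the intermediate lay there. Of the 3 regions open in every library, a pair lay within Camk2a, a neuronal kinase gene. One of this pair had heights of 192 in the intermediate, 120 in ESC, 111 in iPSC and 29 in MEF, and the other 76 in MEF, 54 in iPSC, 44 in ESC and 40 in the intermediate. The last of the 3 lay at the ends of Hmgxb3 and LOC108168367, with 147 in the intermediate, 132 in ESC, 105 in iPSC and 59 in MEF. The nearest of them is 66.2 kb from the Pdgfrb start. The tallest peak of MEF, 132, lay 51.4 kb upstream in a stretch that no other library had open. A peak of 109 in the intermediate alone lay 49.6 kb upstream and overlapped an end of the transporter gene Slc6a7. The tallest of iPSC, 193, lay 9.37 kb upstream at Cdx1, an intestinal homeobox gene, where ESC had 33 and the other lists had no peak. With neighbouring peaks joined, this stretch had a tallest peak of 193 in iPSC and 51 in ESC. Csf1r, the macrophage receptor kinase next to Pdgfrb, had 1 region near its lower-numbered end, from 61106521 to 61107550, that was open in MEF and the intermediate with tallest peaks of 78 and 47. Only a smaller MEF peak of this region, of height 24, lay within 1 kb of the gene end.

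Markers of mural and smooth-muscle cells, where Pdgfrb is used, were checked at their starts. Of the 5 markers Rgs5, Cspg4, Acta2, Tagln and Notch3, MEF had a start peak at 4, ESC at 2, iPSC at 2 and the intermediate at 1. A start peak in MEF that was missing in the intermediate was seen at 3 of the 5. It was seen at 1075 of the 11041 genes with a MEF start peak at a listed start site. Cspg4 and Acta2 had one in MEF alone and Tagln in MEF and ESC, the libraries in which Pdgfrb had its own. Rgs5 had one in iPSC alone, with a height of 47, and Notch3 in all 4 libraries. Their part in the Pdgfrb result was not tested. In these bulk libraries, fewer cells with an open site and less opening per cell cannot be told apart.

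Kit kept an open start in all 4 libraries, while its surroundings differed. The start region runs from 75574061 to 75577530. The summit nearest the start was 73 bp downstream in MEF, 12 bp upstream in the intermediate and iPSC and 22 bp upstream in ESC. A further summit lay 743 to 888 bp downstream in every list, and iPSC and ESC had another at 1.92 and 1.91 kb. In MEF the tallest peak of the locus, 96, was 29.2 kb upstream and in no other list. Of 9 MEF regions, 2 were open in the intermediate, the start region and a region 73.6 kb upstream with heights of 95 in the intermediate, 46 in MEF and 27 in ESC.

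A pair of distal sites of Kit were tall in iPSC, while the 12 regions of iPSC alone had a median height of 41 at this locus, where all regions of iPSC alone had 33. A region 56.0 kb upstream had heights of 240 in iPSC, 57 in ESC and 38 in the intermediate. A region 36.0 kb upstream had 192 in iPSC and 58 in ESC, and the other lists had no peak there. A region 50.5 kb downstream, within the gene, had 59 in iPSC, 50 in the intermediate and 26 in ESC. Past the gene end the intermediate had most of the open regions. Of 6 regions in the 3′ flank, 4 were open in the intermediate alone and 0 in MEF. Of all 256632 regions, 18.2% were of the intermediate alone and 117256 were open in MEF. With 6 regions these counts are small. The tallest, from 75676541 to 75677490, had a height of 145, at or above 95.1% of the list, and lay 102 kb downstream of the start in the long non-coding RNA gene Gm32558. Its neighbours at 101 and 98.0 kb, also of the intermediate alone, had heights of 49 and 35. The former ended at 75676510 and so nearly adjoined the tallest. Among 5 markers of blood and mast cells, which use Kit, Spi1 had a peak at a gene end in every library and Ptprc, Gata1, Cpa3 and Ms4a2 in none. Of 5 melanocyte markers, iPSC had a start peak at 4, ESC and the intermediate at 3 and MEF at 2, and Sox10 was without one. Pmel, scored at either gene end, counted in every library. Among all genes with a listed start site, 65.4% had a start peak in iPSC, 67.0% in ESC, 62.3% in the intermediate and 63.9% in MEF. The part of blood cells, mast cells and melanocytes in the Kit values was not tested.

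Kdr was nearly empty in the intermediate. The locus had 25 open regions in MEF, 15 in iPSC, 3 in ESC and 2 in the intermediate. Peaks per 100 kb were 11.0 in MEF, 6.90 in iPSC, 2.03 in ESC and 0.812 in the intermediate. Fewer peaks per 100 kb were found at 57.0%, 49.5%, 10.2% and 6.83% of protein-coding genes in the same lists. The start region, from 75977591 to 75979350, had summits 20 bp upstream of the start in MEF, 30 bp upstream in iPSC and at the start in ESC. The tallest MEF peak of all 4 loci lay 11.6 kb upstream of Kdr, from 75990071 to 75990761, with a height of 232 that was at or above 98.8% of MEF peaks. It overlaps the long non-coding RNA gene Gm32727 and was in no other list. The 9 MEF regions of the 5′ flank were all in no other list, as were 70.9% of all MEF regions. After joining peaks at most 10 bp apart these were 6 stretches, again all in MEF alone, as were 56.8% of all joined MEF regions.

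The intermediate had 1 region within Kdr and 1 beyond its end. The former lay 35.8 kb downstream of the start, with heights of 45 in ESC, 35 in the intermediate and 30 in iPSC. The latter was 115 kb downstream, with 91 in the intermediate, 49 in MEF and 36 in iPSC. Of 5 endothelial markers, a lineage that depends on Kdr, Tek had a start peak in every library and Cdh5 a peak at a gene end in iPSC. Pecam1, Tie1 and Emcn were without one in all 4 lists. Among all genes with a listed start site, 62.3% in the intermediate to 67.0% in ESC had a start peak.

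**Figure D3:**
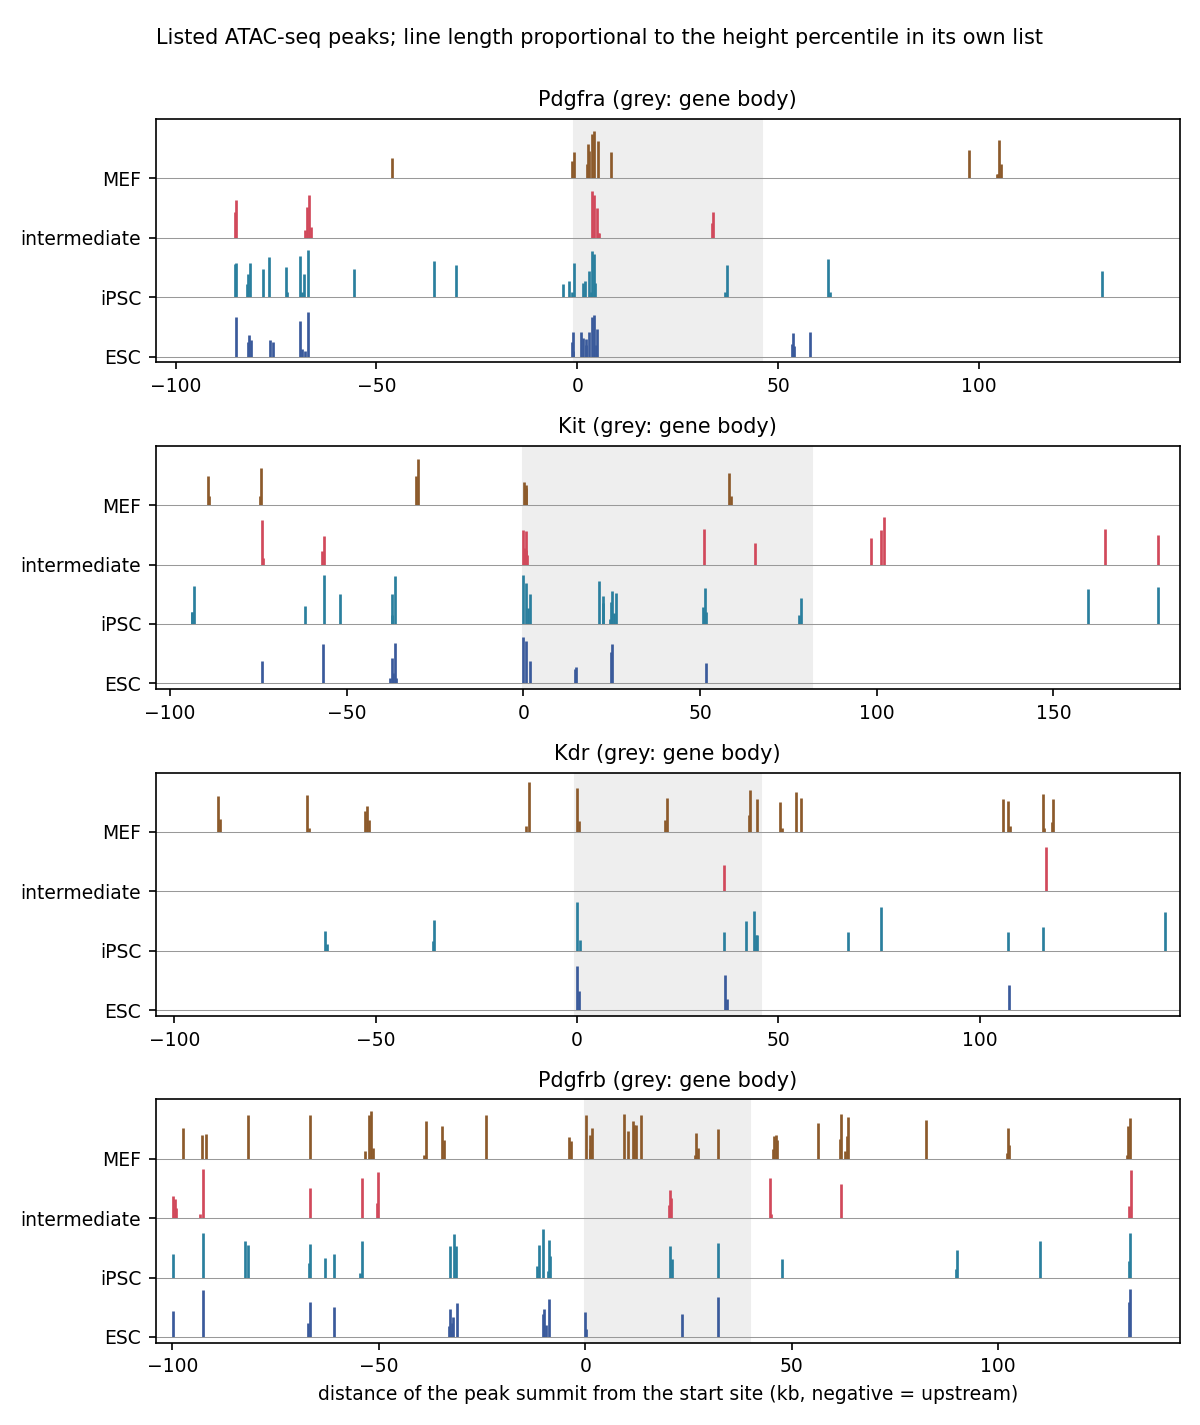
Each line is a listed peak at its summit's distance from the start site in kb (x axis, gene body in grey), with 1 row per library and line length proportional to the height percentile within its own list. MEF peaks crowd over Pdgfrb, the 2 peaks of the intermediate at Kdr lie far from its start, and the intermediate has a group of peaks about 98 to 102 kb downstream of the Kit start.

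Across the 4 loci few fibroblast regions were open in the intermediate. Of 88 MEF regions 8 were open there, 9.09% (Wilson 95% interval 4.68 to 16.9), against 21.7% of all 117256 MEF regions. The number open in iPSC was 12, as was that in ESC, 13.6% (7.98 to 22.3), against 21.6% and 22.4% over all MEF regions. Over the gene bodies alone these shares were 22.2% in iPSC and 25.9% in ESC, so they were no longer lower than over all regions. The intervals cover counting error over regions only, and neighbouring regions are not independent. The share in the intermediate was 1 of 10 at Pdgfra, 2 of 9 at Kit (22.2%), 1 of 25 at Kdr (4.00%) and 4 of 44 at Pdgfrb (9.09%). Kit, with 9 MEF regions, is below the minimum of 10 set for a comparison with other genes. Among 15014 protein-coding genes with at least 10 MEF regions in such a window, the median share was 28.2%, and 7.09% of them had a lower share than Pdgfra, 1.76% than Kdr and 5.87% than Pdgfrb. With peaks joined, 8 of 52 MEF regions were open in the intermediate, 15.4%, against 32.4% over all regions.

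**Figure D4:**
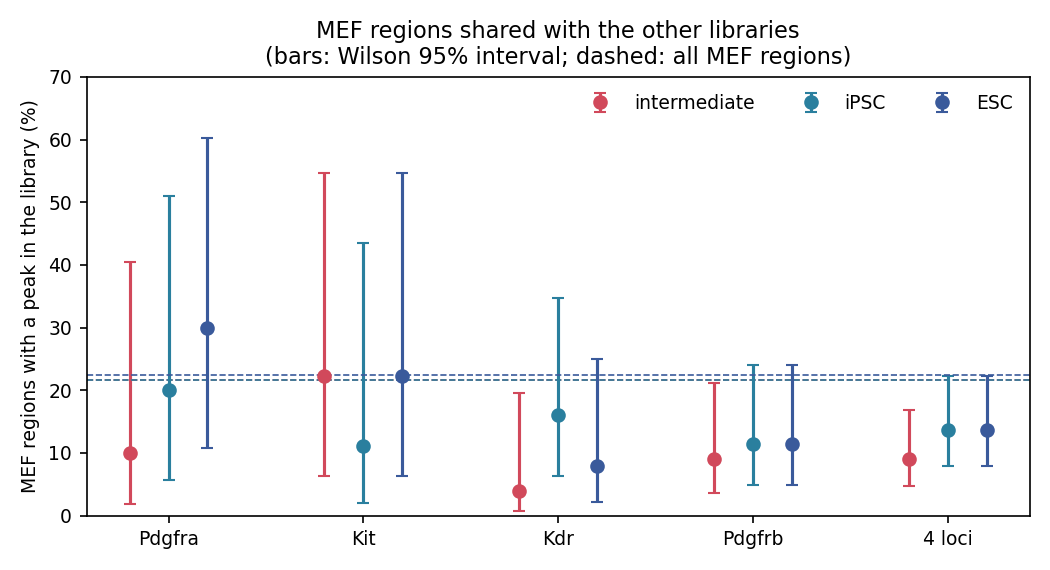
Points give the percentage of MEF regions with a peak in the intermediate, iPSC or ESC (y axis) at each locus and over the 4 loci (x axis), bars are Wilson 95% intervals and dashed lines the shares over all MEF regions. Over the 4 loci the point for the intermediate is 9.09% and its dashed line 21.7%.

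Regions found in a single list were common at these loci in MEF and in iPSC. In MEF 72 of 88 regions were in no other list, 81.8% (72.5 to 88.5), against 70.9% over all MEF regions, and over the gene bodies alone this share was 70.4%. In iPSC 44 of 75 were, 58.7% (47.4 to 69.1), against 38.3%. The iPSC share was 66.1% (53.0 to 77.1) at the chromosome 5 loci and 36.8% (19.1 to 59.0) at Pdgfrb. ESC had a peak in 25 of the 75 iPSC regions, 33.3% (23.7 to 44.6), against 54.5% over all iPSC regions. ESC itself had 9 of 38 regions in no other list, 23.7% (13.0 to 39.2), against 26.1%. At the 4 loci the regions of iPSC alone had a median height of 40 and those it shared 60, and over the whole list these were 33 and 63. The 5 regions open in every library, 2.86% of the 175, compare with 7.03% of all regions.

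**Figure D5:**
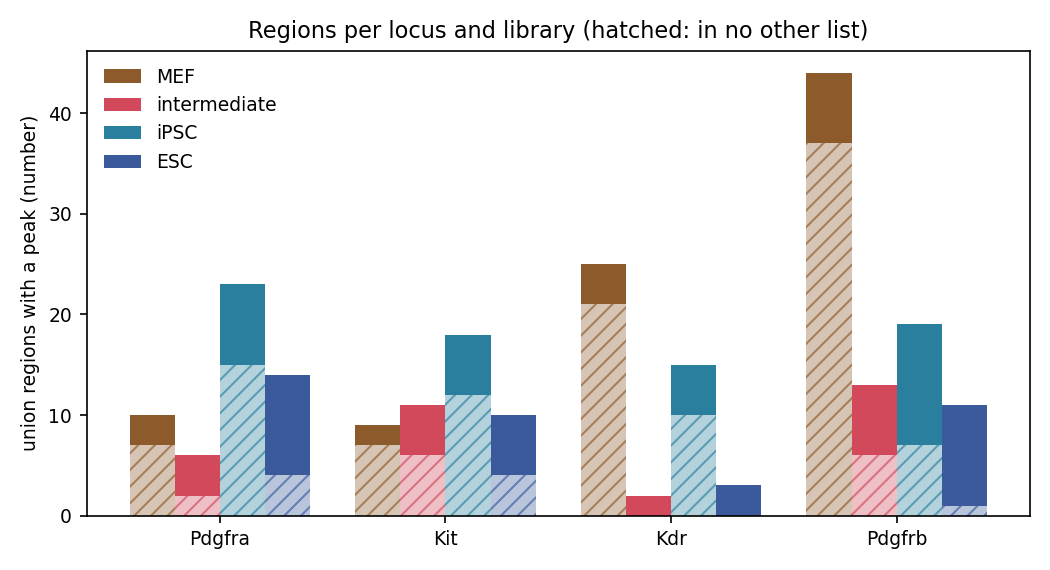
Bars give the number of open regions (y axis) per locus and library, and the hatched part those in no other list. MEF leads at Kdr with 25 and at Pdgfrb with 44, and iPSC at Pdgfra with 23 and at Kit with 18.

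The intermediate also had open regions that MEF lacked. Of 16 regions open in iPSC and ESC but not in MEF, 6 were open in the intermediate, 37.5% (18.5 to 61.4), against 35.8% of 28782 such regions. With an overlap of at least 50% required this was 6 of 31 peaks, 19.4%, against 33.8%. Of its 32 regions 14 were in no other list, 43.8% (28.2 to 60.7), against 52.0%, and with flanks of 20 kb the share was 61.5%. MEF had 8 of the 32 open, 25.0%, against 28.3% of all regions of the intermediate. By bases covered, the overlap of the intermediate was 0.115 with MEF, 0.183 with iPSC and 0.228 with ESC as a Jaccard index, where all peaks gave 0.214, 0.265 and 0.317.

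The genes that act with these receptors were looked up in the same way. Of 10 ligand genes, MEF had a start peak at all 10, iPSC and ESC at 8 and the intermediate at 7. The ligands without one in the intermediate were Pdgfb (75 in MEF alone), Vegfd (60 in MEF alone) and Pgf (48 in iPSC, 33 in ESC and 29 in MEF). Of 11041 genes with a start peak in MEF at a listed start site, 1075 had none in the intermediate. Kitl, the ligand of KIT, had 252 in iPSC, 123 in the intermediate, 114 in ESC and 76 in MEF. Pdgfa, a ligand of PDGFRA, had 143 in the intermediate, 103 in MEF, 83 in ESC and 45 in iPSC. Of 6 related receptors and co-receptors, MEF had a start peak at all 6, ESC at 5, iPSC at 4 and the intermediate at 3. The macrophage receptor gene Csf1r and the VEGF receptors Flt1 and Flt4 were those lacking it in the intermediate, though the peak region at Csf1r was open there beyond the 1 kb window, and the VEGF co-receptors Nrp1 and Nrp2 had one in every library. All 10 signal transducers, from Grb2 and Sos1 to Stat5a and Stat5b, had a start peak in every library.

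The labels were checked against marker genes. Of 6 fibroblast markers, MEF had a start peak at all 6, ESC at 4, iPSC at 3 and the intermediate at 2. Of 6 pluripotency markers, iPSC had one at all 6, ESC at 5 (not at Pou5f1), the intermediate at 3 and MEF at 2. Over all genes with a listed start site, 67.0% had one in ESC, 65.4% in iPSC, 63.9% in MEF and 62.3% in the intermediate. The counts of the intermediate include Sox2 (108), an OSKM factor, and Col1a1 (138), in cells with the Col1a-OSKM transgene. The part of the transgene in these peaks was not tested.

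Genes whose windows had the most similar mix of open patterns were sought over 16317 protein-coding genes with at least 20 regions. The measure is the part of the region shares over 15 patterns that both genes have in common, across the 4 libraries. For Pdgfra these were Il6st, Cadps and Ntrk3 (0.886, 0.885 and 0.879, median over genes 0.496). For Kit they were Gm51999, Usp1 and Setmar (0.918, 0.900 and 0.898, median 0.573), and for Kdr 3425401B19Rik, Tmem273 and Orm3 (0.875, 0.861 and 0.857, median 0.460). The windows of 3425401B19Rik and Tmem273, close together on chromosome 14, overlap, so they are not separate matches. For Pdgfrb they were Filip1l, Clic6 and Lox (0.932, 0.922 and 0.912, median 0.605). Among the members, Pdgfra and Kit shared 0.810 and Kdr and Pdgfrb 0.723, while Pdgfra and Kdr shared 0.516 and Pdgfra and Pdgfrb 0.494. The next-door genes Kit and Kdr shared 0.500.

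Regions just inside and just outside the 100 kb limit differed in height, and at some limits also in library. On the lower-numbered side of Pdgfra the first region outside, at 103.5 kb, was open in MEF (42) and the intermediate (57). The limit thus left out a MEF region that was open in the intermediate. On the higher-numbered side of Pdgfrb the regions at 91.25 and 125.7 kb were both open in every library, with 59 and 134 in MEF. At Pdgfra the last region inside on the higher-numbered side, at 84.28 kb, had a height of 40 in iPSC and the next, at 116.1 kb, had 6 in iPSC. At Kit those on the lower-numbered side, at 93.78 and 108.6 kb, had 18 and 52 in iPSC. On the lower-numbered side of Kdr, a region 99.87 kb from the gene was open in iPSC (69) and the next, at 106.0 kb, in MEF (39). On its other side a region at 88.24 kb was open in MEF (44), and the next, at 101.7 kb, in the intermediate (145) and iPSC (57), so the limit left a tall peak of the intermediate out of the Kdr counts.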

How the data were processed

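Each of the 4 deposited lists gives per peak its coordinates, summit and height. By the file headers the height is a signal value, and the authors' lists hold whole numbers of at least 5 with no sign of scaling to depth, which is unknown. CASAVA 1.8.2, Bowtie2, Picard, MACS 1.4.2-1 and mm10 are named, without roles, in the submitters' processing notes. The program that divided broad peaks into parts 10 bp apart is not known from the labels.

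Peaks on 19 autosomes and the X chromosome were merged into regions with Python 3.11.15 and pandas 2.3.3, in code tested on simulated lists. Genes were those of RefSeq GRCm38.p6, the assembly behind mm10, and all 70 listed genes matched. Start sites came from the RefSeq promoter table, and for genes not in it both gene ends were used. With 1 library per population, no test was run. Wilson intervals have a level of 95%, and the limit for a count of 0 is 3 counts of the total.

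Named genes and sites were the members, the listed pathway and marker genes, genes in the loci, the 3 tallest peaks per locus and library, and the 3 most alike genes per member. Other sites, the CpG classes, the summit positions, the peak densities, the percentages of genes with a lower share and the shares of MEF and iPSC regions in no other list were chosen after their values were seen. The members and lists were chosen with earlier results of these data known. Alternatives joined neighbouring peaks, left out heights under 10 or the lower 50% of each list, equalised list lengths, narrowed the loci, required an overlap of 50% and reset peak widths to 500 bp.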

Additional observations from a re-analysis of the deposited data

How the results depend on the processing

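The share of MEF regions open in the intermediate ran from 5.00% to 15.8% over the value as reported and 8 alternatives, and that of pluripotent regions from 19.4% to 50.0%, the lowest with an overlap of 50% (33.8% over all). Both stayed within the interval of the main value, which is wide for the pluripotent regions. This does not show stability, because some alternatives change the unit and with it the share over all regions. That share was 32.3% beside the 15.8% and 21.7% beside the 5.00%. The 50.0% is 2 of 4 regions. The share of iPSC regions in no other list ran from 48.1% to 58.7%, also within the interval of its main value. With peaks at most 10 bp apart joined, 23.1% of MEF regions were open in iPSC and 71.2% were in no other list, where all regions gave 32.6% and 56.8%. With peaks of 500 bp around the summit, 71.9% of MEF regions and 28.0% of intermediate regions were in no other list, against 56.9% and 38.4% over all. With the gene bodies alone, 25.9% of MEF regions were open in ESC and 22.2% in iPSC, against 22.4% and 21.6% over all, and 70.4% were in no other list, level with the 70.9% over all MEF regions. With flanks of 20 kb, 0 of 12 MEF regions at Kdr and 0 of 21 at Pdgfrb were open in the intermediate. With the gene bodies alone these counts were 0 of 6 and 0 of 14, where 21.7% of all MEF regions were open there. The gene-body counts are small and allow shares of up to 50.0% at Kdr and 21.4% at Pdgfrb. The share of intermediate regions in no other list was 27.3% with the taller 50% of each list (41.2% over all) and 61.5% with flanks of 20 kb (52.0% over all). With the taller 50%, 2 of the 4 genes had an end peak in MEF and 2 in ESC. End windows of 500 bp and 2.5 kb left 1 gene of 4 with an end peak in the intermediate. The window of 500 bp lowered the number to 3 in MEF, 3 in ESC and 2 in iPSC, as Pdgfra no longer counted. Joining brought the number of MEF regions at the loci from 88 to 52 and left 25 in the intermediate in place of 32. The cause was not tested. No paired analysis was possible because each group has 1 library. Read depth is unknown, and its part in which peaks are listed was not tested.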
